A study of Mus musculus with 2 samples.

Results

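Ret, its co-receptors and their ligands of the GDNF family were followed in ureters of mouse embryos in which Rbpj had been deleted from the mesenchyme. The members were all probes, controls apart, whose gene name in both array files was Ret, Gfra1, Gfra2, Gfra3, Gfra4, Gdnf, Nrtn or Artn. That gave 8 of 29924 gene names on the array and 11 of 39429 probes, with 4 probes for Gfra4 and 1 for each other gene. All 11 were among the 26980 probes that passed the filter on dim signals, and all 11 were well above background on 4 of 4 spots in every channel.

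RET is a receptor tyrosine kinase that binds its ligands only together with a membrane-anchored GFRA co-receptor. GDNF acts mainly through GFRA1, neurturin (Nrtn) through GFRA2, artemin (Artn) through GFRA3 and persephin (Pspn) through GFRA4. In the developing kidney and ureter, GDNF from the mesenchyme makes the RET-bearing ureteric bud grow out and branch, and in the peripheral nervous system RET is carried by neural crest cells and the enteric and autonomic neurons that arise from them.

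The mutant ureters (Rbpj-cKO) had the genotype Tbx18(cre/+);Rbpj(fl/fl), and the controls Rbpj(fl/?), so a floxed Rbpj allele was common to both. All embryos were of the NMRI strain at E14.5. Cre comes from the Tbx18 locus, which is active in the ureteric mesenchyme, and the mutants carry it on a single Tbx18 allele. The labels give neither the Cre status of the controls nor the number of embryos behind a channel. Each of the 2 arrays carried both genotypes in 2 colours. On replicate 1 the embryos were male and Rbpj-cKO was red (AlexaFluor647). On replicate 2 they were female and Rbpj-cKO was green (AlexaFluor555). Sex and colour therefore change together and cannot be told apart.

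On each array 67.7% to 70.1% of the spots of a channel were well above background. By its brighter probe Rbpj itself had log2 ratios of Rbpj-cKO over control of -1.13 in the male and -0.63 in the female pair (limma adjusted p = 0.713), so both were below the control without passing the test. Tbx18 had 0.17 and -0.24. All 16 markers of ureteric epithelium and all 12 of ureteric mesenchyme passed the filter. So did all 10 of skeletal muscle, all 10 of erythroid cells, all 7 of chromaffin cells and all 8 of macrophages, so passing it does not tell the labelled tissue from others. The female Rbpj-cKO channel carried signal of the Y-linked genes Ddx3y and Eif2s3y at 8.04% and 8.89% of the male Rbpj-cKO channel. In the female control Ddx3y was well above background on 0 of 4 spots and Eif2s3y on 2 of 4. The log2 ratios of Rbpj-cKO over control ran opposite ways on the arrays across the probes (Pearson's r = -0.365, Spearman's rho = -0.47). This r is over probes, which are not independent replicates.

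The probes are 60 bases long and lie on mm9, the build of the array's coordinates. The stretches below are parts of probes and do not give the A and T content of a whole probe, beside which the colour ratios are set further on. Each stretch was placed around AATAAA, else around a run of 5 T, else at the last 30 bases. Each is 30 bases of the probe, 5′ to 3′, and capitals mark a run of at least 4 T or the letters AATAAA, the usual polyadenylation signal.
Ret, chr6:118101791-118101850, minus strand, bases 7 to 36: cgtgttgacttgTTTTTgtaatcaaggtga
Gdnf, chr15:7787474-7787533, plus strand, bases 31 to 60: caaagttctctacaaactttaTTTTTgtac
Gfra2, chr14:71379586-71379645, plus strand, bases 13 to 42: taaccaagctccAATAAAcgtactaggaag
Gfra4-1, chr2:130867132-130867191, minus strand, bases 31 to 60: tggagcgctgcgagcgcagccgcctgtgcc
Gfra4-4, chr2:130865376-130865435, minus strand, bases 31 to 60: ctgcagtggctcAATAAAcccatgtgcact

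The Gfra4 probes are numbered 1 to 4 in the direction of transcription. Gfra4-2 lies at chr2:130866140-130866199 and Gfra4-3 at chr2:130865957-130866016, both on the minus strand. The other probes are those of Gfra1 (chromosome 19, 58311604 to 58311663, minus), Gfra3 (chromosome 18, 34849560 to 34849619, minus), Nrtn (chromosome 17, 56890748 to 56890807, minus) and Artn (chromosome 4, 117598825 to 117598884, minus). The sources used here do not give the exon or UTR of a probe.

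The question put to the arrays was which transcripts of the ureter change when Rbpj is lost from its mesenchyme. Levels below are processed signals, the scanner software's intensities after background subtraction and dye normalization, averaged over the spots of a probe. They compare channels of a probe and not one gene with another, and the arrays were not scaled to each other. Ratios are log2 of Rbpj-cKO over control after background correction and loess, as the values of replicate 1 and replicate 2 or as the mean ± SD of n = 2. No member passed the test. Of the 11 probes, 0 had a limma adjusted p under 0.05 (0 at an unadjusted p under 0.05), and the adjusted p was 1 for each. Over all 26980 probes the share called was 0%, with 468 probes at an unadjusted p under 0.05 and a smallest adjusted p of 0.195. With 2 arrays an exact permutation of signs cannot go below p = 0.5 (two-sided).

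**Figure D1:**
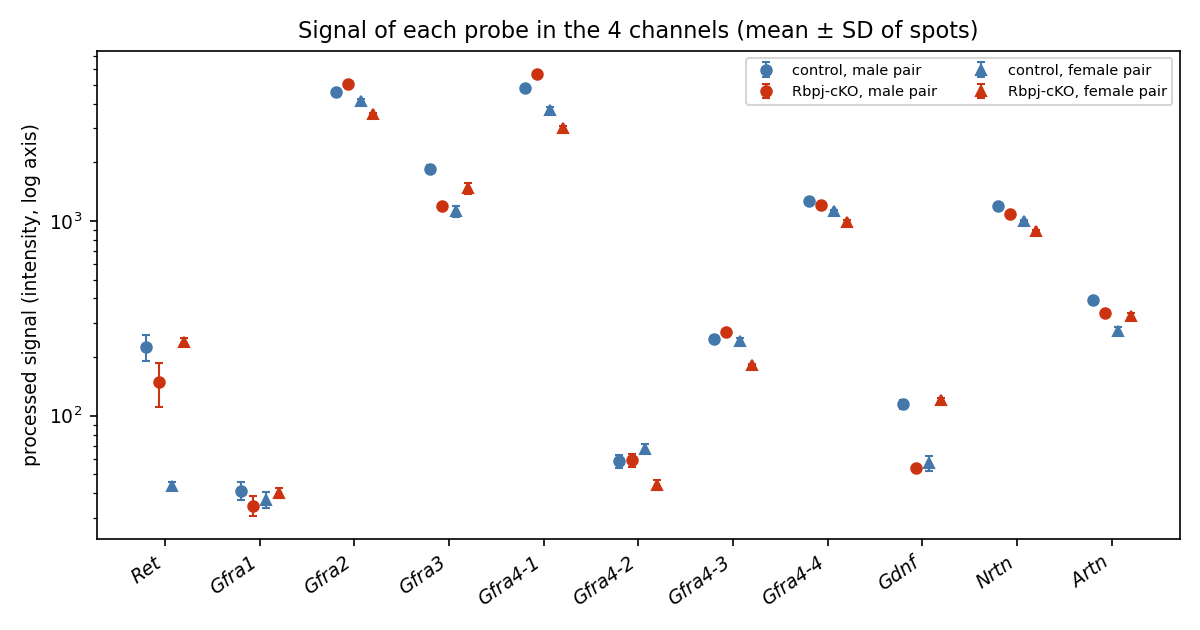
Processed signal of the 11 probes (log axis) in the 4 channels. Points are means and bars the SD over the spots of a probe, circles are the male and triangles the female pair, blue is control and red Rbpj-cKO. Ret stands at 43.5 in the female control and between 148 and 240 in the other channels, while Gdnf changes order between the pairs.

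Ret had the widest range of the members. In the male pair it stood at 148 in Rbpj-cKO and 225 in control, and in the female pair at 240 in Rbpj-cKO and 43.5 in control. The female control stood far below the other channels, and the order of the genotypes turned round between the pairs. Across the spots, Ret ran from 128 to 205 in male Rbpj-cKO and from 200 to 275 in male control, which overlap, and the female Rbpj-cKO spots at 223 to 248 lay inside the male control range. The female control spots lay between 41.4 and 46.0, clear of all others. The log2 ratios were -0.51 and 1.99, and their mean of 0.74 ± 1.77 had a 95% interval from limma of -0.40 to 1.88 (adjusted p = 1). The male control signal of Ret was 5.17 times the female control signal, across arrays that were not scaled to each other.

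The co-receptor genes lay closer together. Gfra1, which encodes the main co-receptor for GDNF, was dim in every channel, with 34.5 in male Rbpj-cKO, 41.2 in male control, 40.1 in female Rbpj-cKO and 37.1 in female control. Its log2 ratios of -0.14 and 0.05 gave a mean of -0.05 ± 0.14 (95% interval -0.37 to 0.27), and the spot ranges of the genotypes overlapped on both arrays. Gfra2, for neurturin, stood at 5060 and 4587 in male Rbpj-cKO and control and at 3543 and 4145 in female Rbpj-cKO and control. Its log2 ratios were 0.14 and -0.23, a mean of -0.05 ± 0.26.

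Gfra3, the artemin co-receptor known from sensory and sympathetic neurons, had 1189 in male Rbpj-cKO and 1853 in male control. In the female pair it had 1475 in Rbpj-cKO and 1121 in control. Its spots did not overlap between the genotypes on either array, which was also so for Gfra2, Gfra4-1, Gfra4-3, Gdnf, Nrtn and Artn. The share over all probes was not counted, so the lack of overlap does not set the members apart. The spots of a probe are repeats within an array. The order of the Gfra3 genotypes turned round. The log2 ratios were -0.62 and 0.37, a mean of -0.12 ± 0.70 (95% interval -0.66 to 0.41).

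Gfra4 encodes the persephin co-receptor, and its 4 probes did not share a sign pattern. Gfra4-1 had log2 ratios of 0.23 and -0.30, Gfra4-2 had 0.05 and -0.47, and Gfra4-3 had 0.13 and -0.42. Gfra4-4, at the end of the transcript, had -0.06 and -0.20 and was lower on both arrays, though its male ratio turned to 0.10 with median centring in place of loess. The probes gave means from -0.21 ± 0.36 for Gfra4-2 to -0.04 ± 0.38 for Gfra4-1, so they lay close to each other beside their own spread. In signal, Gfra4-4 had 1207 and 1270 in male Rbpj-cKO and control and 990 and 1120 in the female pair. Gfra4-1 had 5685 and 4797, and 2996 and 3715, in the same order. All 4 probes were lower in Rbpj-cKO of the female pair. They share a gene, and 4 agreeing signs on that array are not 4 separate observations of the condition.

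Among the ligand genes, Gdnf was the one whose genotypes changed places by the widest margin. It had 54.0 in male Rbpj-cKO and 115 in male control, and 121 in female Rbpj-cKO and 57.0 in female control. The spots of the genotypes lay apart on each array, at 53.2 to 55.3 and 108 to 122 in the male pair and at 119 to 123 and 52.2 to 62.0 in the female pair. The log2 ratios of -0.80 and 0.85 left a mean of 0.03 ± 1.17 (95% interval -0.77 to 0.82). In both pairs the higher value was the green channel.

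Nrtn was the member with the closest agreement between arrays. It had 1090 and 1188 in male Rbpj-cKO and control, and 887 and 999 in the female pair, lower in Rbpj-cKO each time, though with median centring in place of loess the male log2 ratio turned to 0.04. With loess the log2 ratios were -0.11 and -0.17, a mean of -0.14 ± 0.041 (95% interval -0.45 to 0.17), and the adjusted p was 1. Artn had 335.5 and 393 in male Rbpj-cKO and control, and 327 and 272 in the female pair. Its log2 ratios of -0.20 and 0.24 had a mean of 0.02 ± 0.32. The probes of the other family members Pspn and Gfral were well above background on 0 of 4 spots in each channel, so these transcripts were not detectable here and no ratio is given.

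**Figure D2:**
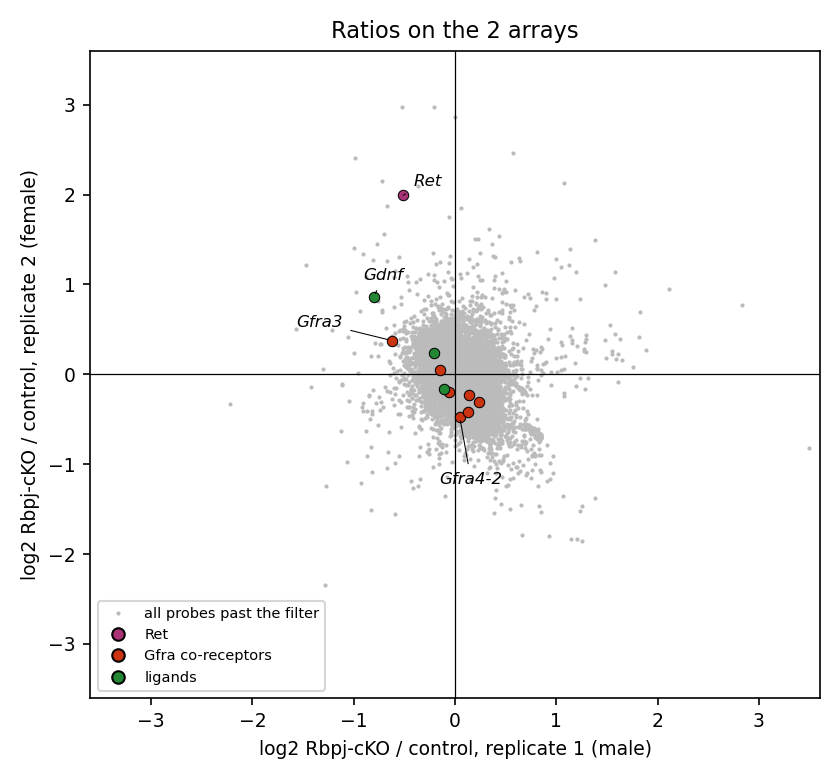
Log2 ratio of Rbpj-cKO over control on replicate 1 (x axis, male) and replicate 2 (y axis, female). Each point is a probe past the filter in grey, Ret in purple, co-receptors in red and ligands in green. Ret, Gdnf and Gfra3 lie at the upper left, lower on replicate 1 and higher on replicate 2, and 0 of the 11 member probes were higher on both.

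Of the 11 member probes, 9 had opposite signs on the arrays, against 69% of all probes past the filter. Lower on replicate 1 and higher on replicate 2 were 5, where all probes gave 34.4%. Lower on both were 2 (all probes 15.5%), and higher on both were 0 (all probes 15.4%). With 11 probes of 8 genes, these counts are no result about the members as a set. A difference of 1.5-fold or more in a common direction was seen for 0 members, against 0.104% of all probes higher and 0.0556% lower. A difference of that size in opposite directions was seen for 1 member, Gdnf, against 0.604% of all probes, or 0.0778% with the order of Gdnf, lower in the male and higher in the female pair. Ret missed that mark in its male pair, where the processed signals gave -0.62 and would have passed it, and Gfra3 missed it in its female pair. The median of the 11 mean ratios was -0.05, beside -0.0063 for all probes.

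Because the colours were exchanged, a ratio that turns its sign between the arrays keeps its sign as red over green. Red was lower than green on both arrays for 5 probes (Ret, Gfra1, Gfra3, Gdnf and Artn) and higher on both for 4 (Gfra2, Gfra4-1, Gfra4-2 and Gfra4-3). For Gdnf the log2 ratio of red over green was -0.80 on replicate 1 and -0.85 on replicate 2, apart by less than its spot SD of 0.13 on replicate 2. For Artn it was -0.20 and -0.24, and for Gfra2 0.14 and 0.23. Ret did not hold its colour ratio, with -0.51 and -1.99.

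The base composition of the probes moved with these colour ratios. Ret and Gdnf, with 65% A and T, had mean log2 ratios of red over green of -1.25 and -0.83. Gfra3 and Gfra1, with 58.3%, had -0.50 and -0.10, and Artn, with 55%, -0.22. Gfra2, with 51.7%, had 0.19, and the Gfra4 probes, with 45% for 3 of them and 25% for Gfra4-1, had 0.07 to 0.27. Nrtn, with 41.7%, had 0.03. Across the 11 probes r was -0.782 (rho -0.834), as a description of probes that share the same arrays and, for 4 of them, a gene. Across all 26980 probes r was -0.252. Probes with 65% A and T had a median of -0.05 and a middle 50% from -0.14 to 0.05, so Ret and Gdnf lay well below most probes of their composition. The part of base composition in the members' ratios was not tested.

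**Figure D3:**
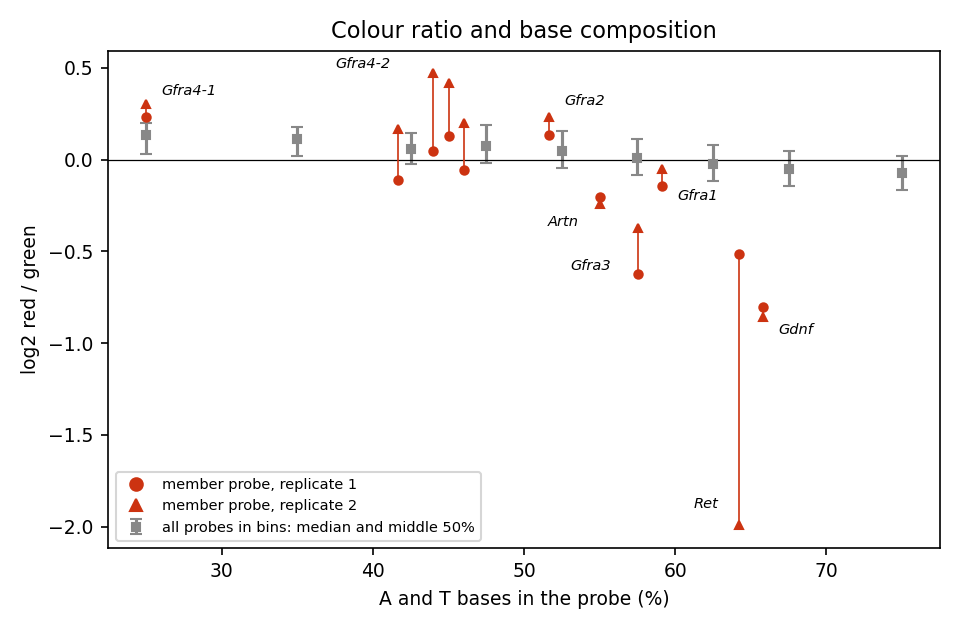
Log2 red over green (y axis) against the share of A and T bases in the probe (x axis, percent). Red circles and triangles are the member probes on replicate 1 and replicate 2, joined by a line, with probes of equal composition drawn slightly apart. Grey squares and bars are the median and middle 50% of all probes in bins, with the outermost bins drawn at 25 and 75. Gdnf keeps its place at 65% on both arrays, while Ret moves from -0.51 to -1.99.

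The channels in which Ret was high were compared with those of other genes. Over the 4 channels, with each gene's log2 levels centred on its own mean, the 5 named genes nearest to Ret of 15363 were Slc18a3, Tlx2, Ccny, Calcb and Hoxb9. Slc18a3, the vesicular acetylcholine transporter of cholinergic neurons, lay at a distance of 0.22 with log2 ratios of -0.72 and 2.15. Tlx2, a homeobox factor of enteric and other crest-derived neurons, lay at 0.40 with -0.37 and 2.10. The cyclin gene Ccny and Calcb, a calcitonin gene-related peptide, had -0.99 and 2.41, and -0.67 and 1.26, respectively. For the homeobox gene Hoxb9 the signals were 406 and 850 in male Rbpj-cKO and control, and 590 and 203 in the female pair. The likeness rests on 4 channels of 2 arrays and is a description. Since it includes the difference between arrays that were not scaled to each other, it also carries any difference in their overall brightness.

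In the fixed list of autonomic neuron and neural crest genes, 16 of 17 passed the filter, and the summed signal was 48546 in male Rbpj-cKO, 44456 in male control, 40946 in female Rbpj-cKO and 34286 in female control. No measured marker of the list was below background in any channel. Higher on both arrays were 11 and lower on both 0, with 0 called by limma (6 at an unadjusted p under 0.05). Over all probes past the filter 15.4% were higher on both and 15.5% lower on both, and 468 of 26980 had an unadjusted p under 0.05. The median log2 ratio of the list was 0.19 in the male and 0.55 in the female pair. Phox2a, a homeobox factor of autonomic neurons, was the gene of the list that reached 1.5-fold higher in both pairs, at 0.64 and 1.26 (adjusted p = 0.724). The crest and glial factor Sox10 had 0.20 and 0.38. Prph, which encodes peripherin, an intermediate filament of peripheral neurons, was chosen after its values were seen and had -0.70 and 1.57. The female control, the lowest channel of Ret, was also the lowest for 14 of the 16 genes. For Ednrb (log2 ratios 0.295 and -0.236) and Snap25 (0.341 and -0.26) the female Rbpj-cKO was the lowest. The female control was the lowest for 6 of 7 chromaffin, 8 of 16 ureteric epithelium and 4 of 8 macrophage genes, and for 52.3% of all 20495 genes, across arrays that were not scaled to each other. Among the member probes it was the lowest for 3 of 11. In bulk RNA, fewer cells of a type and less RNA per cell cannot be told apart, and the part of nerve content in the Ret values was not tested.

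In the male pair Ret stood at -0.51, while the medians of the autonomic and the chromaffin list were above 0. Of the 7 chromaffin genes 4 were 1.5-fold or more higher in both pairs (Chga, Chgb, Dbh and Slc18a1, which serve catecholamine synthesis and storage). Th, at 1.55 and 0.23, and Ddc, at 0.87 and 0.12, fell short of that in the female pair. Pnmt, also on the list but dim, was lower in both pairs, at -0.15 and -0.11. Limma called 0 of the 7 genes, with 6 of the 7 at an unadjusted p under 0.05. Over all probes past the filter 0.104% were 1.5-fold or more higher in both pairs, and 468 of 26980 had an unadjusted p under 0.05. The chromaffin list had medians of 1.55 and 0.70, and its summed signal was 33255 against 7273 in male Rbpj-cKO and control, and 6684 against 4353 in the female pair. The 16 markers of the ureteric epithelium had medians of -0.02 and 0.0036. Their summed signals were 56067 and 57743 in the male pair and 49786 and 50180 in the female pair, sums carried mostly by Krt18 and Krt8. Within this list Krt5, a basal keratin chosen after its values were seen, had -0.36 and -1.25 (adjusted p = 1). The part of the epithelium in the Ret values was not tested. Of the ureteric mesenchyme list, with medians of -0.07 and 0.04, Myocd, a coactivator of smooth muscle genes, was the gene 1.5-fold or more lower in both pairs, at -0.67 and -1.04 (adjusted p = 0.589). The 10 skeletal muscle genes were each higher in male and lower in female Rbpj-cKO, the opposite order to Ret, with medians of 0.53 and -0.96. Of these genes, 8 had at least 2 of 4 spots well above background in every channel, while Ckm and Chrng did not. Opposite signs in either order were seen for 69% of all probes past the filter, and the order of Ret for 34.4%.

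**Figure D4:**
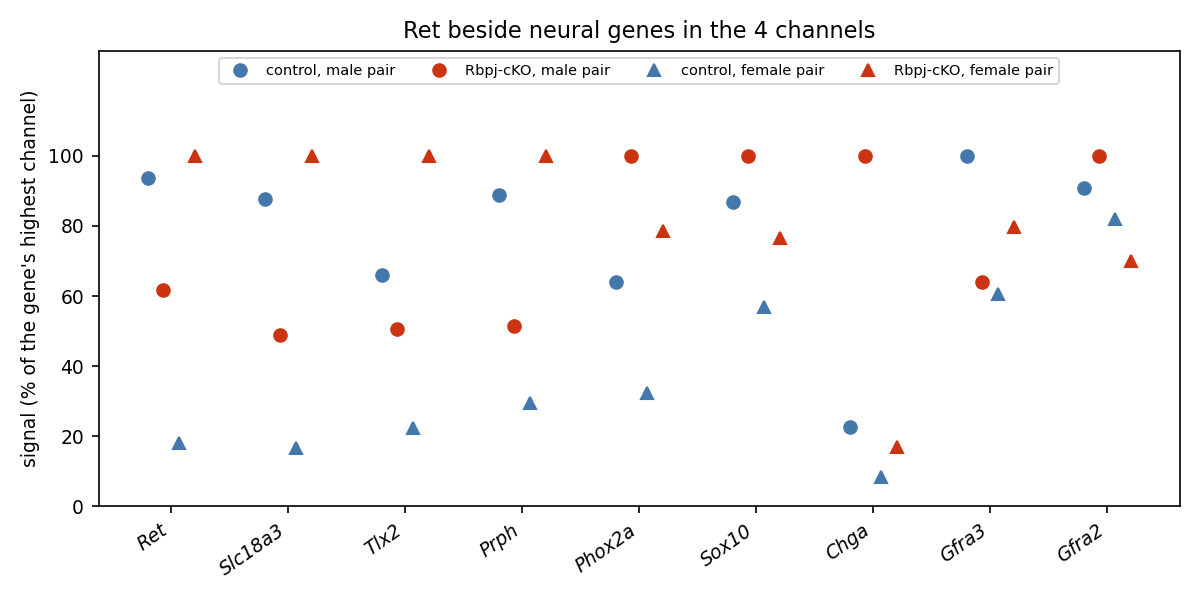
Processed signal in the 4 channels as a percentage of the gene's highest channel (y axis) for Ret, 6 neural genes, Gfra3 and Gfra2. Blue is control and red Rbpj-cKO, circles are the male and triangles the female pair. For Ret, Slc18a3, Tlx2, Prph and Phox2a the female control lies at 16.5% to 32.3% and is the lowest channel, as it is for Chga at 8.36% and Sox10 at 56.9%. Rbpj-cKO of the female pair is highest for Ret, Slc18a3, Tlx2 and Prph, and that of the male pair for Phox2a, Sox10 and Chga. Slc18a3 and Tlx2 were chosen for their likeness to Ret, and Prph after its values were seen. Ednrb and Snap25 of the autonomic list, in which the female Rbpj-cKO is the lowest channel, are not drawn. Neither are Ccny, Calcb and Hoxb9, also among the genes nearest to Ret. Their female control is the lowest channel too, at 14%, 16% and 23.9%, so this pattern is not particular to neural genes.

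Genes that act with RET were read from 3 lists. Together they held 63 genes, of which 59 passed the filter. The counts of genes called were 0 of 59 by limma, with 3 at an unadjusted p under 0.05. A common direction at 1.5-fold or more was seen for 0, and opposite directions for 1. In sign alone, 16 were higher in both pairs, 15 lower in both and 28 mixed. All probes past the filter gave 15.4%, 15.5% and 69%, and 468 of these 26980 had an unadjusted p under 0.05. At 1.5-fold or more, 0.104% were higher in both pairs, 0.0556% lower and 0.604% opposite. The same shares stand beside the counts of the separate lists below. Over the 59 genes the median of the mean ratios was 0.03, against -0.0032 over 20495 genes.

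Among 21 genes of signal transduction and other receptors, 17 passed the filter and their median log2 ratios were 0.02 and -0.04. Ncam1, an alternative receptor for GDNF with its GFRA partner, had 0.03 and 0.09. Dimmer Ncam1 probes past the filter had 0.04 and -0.37, and 0.23 and -0.15. Sdc3, a heparan sulphate proteoglycan that binds GDNF, had 0.06 and -0.10. In sign, 3 were higher in both pairs, 4 lower in both and 10 mixed. No gene of this list reached 1.5-fold on either array.

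All 13 targets and feedback genes of the ureteric bud passed the filter, with medians of -0.03 and 0.08. In sign, 2 were higher in both pairs, 4 lower in both and 7 mixed. The ETS factors Etv4 and Etv5, which RET signalling induces in the bud tip, had -0.46 and 0.16, and 0.23 and 0.08. A dimmer Etv4 probe past the filter had -0.18 and -0.25, lower in both pairs. Spry1, which restrains RET signalling, had -0.03 and -0.19. Wnt11, a tip gene that feeds back on Gdnf, had -0.01 and 0.20. The female control, where the Ret signal was lowest, held 338 for Etv4, 2503 for Etv5 and 546 for Wnt11, against 382, 2631 and 636 in the female Rbpj-cKO. These gaps were small beside the 5.52 times for Ret in the same pair, and the difference was not tested.

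Among 29 regulators of Gdnf or Ret expression, all passed the filter. In sign, 11 were higher in both pairs and 7 lower in both, and the medians were -0.03 and 0.13. Eya1, which is needed for Gdnf in the metanephric mesenchyme, had 7674 and 4250 in male Rbpj-cKO and control and 4447 and 7186 in the female pair. Its log2 ratios of 0.85 and -0.69 made it the list gene past 1.5-fold in opposite directions, in the reverse order of Gdnf. Pax2, which acts upstream of Gdnf and Ret, had -0.03 and -0.26, and another Pax2 probe past the filter 0.18 and 0.05. Both were dim, with signals from 15.6 to 24.0. Gata3, needed for Ret in the nephric duct, had -0.25 and 0.36. Slit2 and its receptor Robo2, which limit the Gdnf domain, had 0.15 and 0.33, and -0.50 and 0.53. Dimmer Robo2 probes past the filter had -0.39 and 0.08, and -0.16 and 0.03. The BMP gene Bmp4, which holds back budding, had 0.27 and 0.06, and its antagonist Grem1 -0.18 and -0.20. None of these had a limma adjusted p under 0.05. Six2, a nephron progenitor factor chosen after its values were seen, had the widest range, at -1.57 and 0.51. Dimmer Six2 probes past the filter had -0.47 and 0.10, and -0.74 and 0.34. Both were well above background on 0 of 4 spots in male Rbpj-cKO. Among the genes with an unadjusted p under 0.05 were Kif26b, needed for attachment of the metanephric mesenchyme to the bud, at 0.25 and 0.65, and Npnt, which encodes the integrin ligand nephronectin, at 0.34 and 0.30, also chosen after their values were seen. A dimmer Npnt probe past the filter had 0.28 and -0.22 and so did not share this direction on replicate 2.

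**Figure D5:**
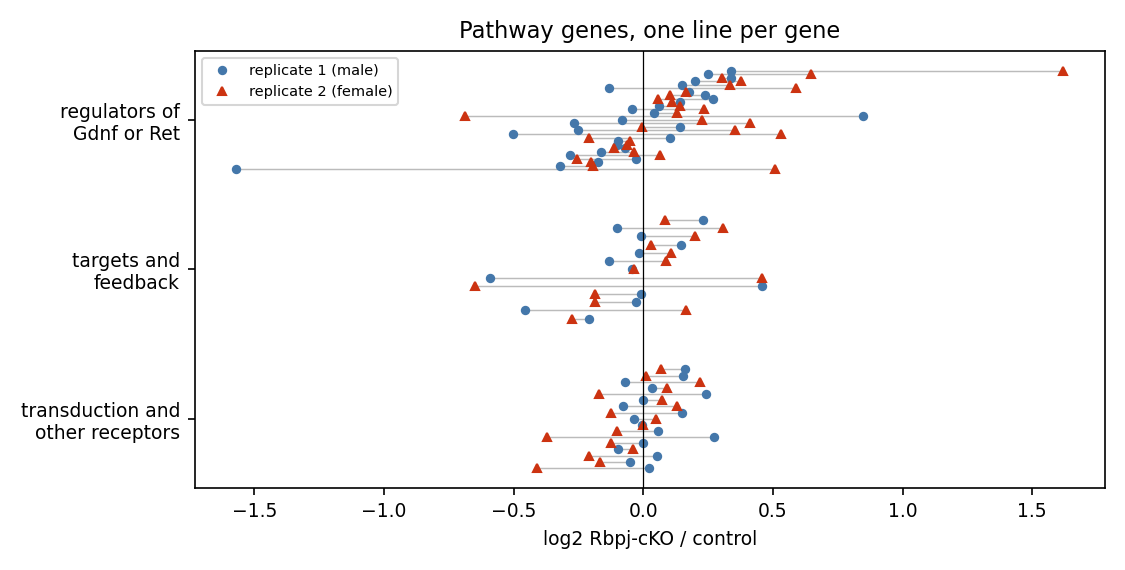
Log2 ratio of Rbpj-cKO over control (x axis) of the 59 measured genes in the 3 lists, a line for each gene in a list. Blue circles are replicate 1 and red triangles replicate 2. The longest line among the regulators runs from -1.57 to 0.51 and is that of Six2.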

How the data were processed

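The deposited mean and local background median intensities of each colour are linear and not normalized, per the file headers. The deposited processed intensities went through the scanner software's background subtraction, spatial detrending and normalization between dyes, per the file headers. The deposited log10 ratio is red over green of these. Flags for signal above background, saturation and outliers were deposited as other values of 0 or 1. Per the submitters' processing notes, Agilent Feature Extraction 10.7.3.1 was used. The authors' series table holds a score, read from its values as a signed fold change, and no source here states its method. It was tried as an alternative.

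Correction for background used normexp with an offset of 50, which draws ratios of dim probes towards 0, and ratios were normalized by loess with weight 0 for 17263 control spots (limma 3.58.1, R 4.3.3). Outlier spots (3.57% and 3.9%) were left out, and the other spots of a probe averaged. A probe passed with at least 2 of 4 spots well above background in a channel on each array. Ratios of replicate 2 were turned, and each probe's mean was tested against 0 with lmFit and eBayes (1 residual and 6.19 prior degrees of freedom, Benjamini-Hochberg over 26980 probes). Nothing says how many embryos were used, so the p-values refer to the spread between these 2 arrays, and that number limits the precision. For the p-values and intervals eBayes drew the spread of each probe towards that pooled over all probes. The standard error was 0.485 for Ret beside an SD of 1.77, and 0.132 for Nrtn beside an SD of 0.041. The procedure was tested on simulated data. Symbols came from RefSeq accessions for 28328 probes, from symbols for 3400 and from the file for 7701. For the lists, the brightest probe past the filter stood for a gene. Members and lists were chosen with earlier results of these data known. The genes named are all members, Rbpj, Tbx18, fixed pathway genes, some of which are not reported here, any list gene 1.5-fold or more higher, or lower, in both pairs, a few markers and the 5 genes nearest to Ret, with others given as chosen after their values were seen. The remaining marker lists were these. Collecting duct had medians of -0.03 and -0.08, metanephric mesenchyme and stroma -0.16 and -0.14, adrenal cortex and gonad 0.03 and -0.22, erythroid genes 0.24 and -0.58, and macrophage genes 0.47 and 0.03. A total of 13 alternatives were tried.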

Additional observations from a re-analysis of the deposited data

Results flagged for a closer look

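Of the 11 member probes, 9 moved one way in the male pair and the other way in the female pair, where 69% of all probes past the filter had opposite signs. The 5 genes nearest to Ret did so too, and were chosen for that pattern. Of 27 other named genes that were counted 9 did. The count left out some genes named above, among them Ednrb and Snap25, which also had opposite signs. With a single array for each sex, and colours exchanged between them, the difference was not tested. The log2 ratio of replicate 1 minus that of replicate 2 was -2.50 for Ret, -1.66 for Gdnf, -0.996 for Gfra3, -0.446 for Artn and -0.194 for Gfra1. It was 0.37 for Gfra2, 0.538 for Gfra4-1, 0.516 for Gfra4-2 and 0.546 for Gfra4-3. Among the genes nearest to Ret it was -2.87 for Slc18a3, -2.46 for Tlx2, -3.39 for Ccny, -1.93 for Calcb and -2.41 for Hoxb9. Among the pathway genes, by the brightest probe of each, it was 1.54 for Eya1, -1.04 for Robo2, -0.619 for Etv4, -0.608 for Gata3, -0.211 for Wnt11 and 0.16 for Sdc3. The dimmer Etv4 probe was lower in both pairs, and the dimmer Robo2 and Six2 probes had smaller differences. By the brightest probe, the difference was -2.08 for Six2 and -2.26 for Prph, and for Tbx18 it was 0.407.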

How the results depend on the processing

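The number of member probes called by limma was 0 under all 11 alternatives that give a test, and the smallest adjusted p of a member probe was 0.193. Over all probes the count called was 8 with normexp offset 10 and 3 with the processed signals, against 0, and 0 under the other tested alternatives. Probes with a common direction of 1.5-fold or more in both pairs numbered 43, and 108 with the processed signals or the authors' series table. Without turning replicate 2 they numbered 163, of which 1 was a member and 1 a pathway gene. On single arrays, leaving out the other, the counts ran from 403 to 775 for all probes, were 2 on each array for members and ran from 3 to 5 for pathway genes. Counts of calls by limma have no value without an array, since no residual degree of freedom is left. Not turning replicate 2 reversed the mean log2 ratio of 9 member probes by construction. It was then -1.25 for Ret, -0.83 for Gdnf and -0.22 for Artn, and 0.19 for Gfra2, 0.27 for Gfra4-1, 0.26 for Gfra4-2, 0.27 for Gfra4-3, 0.071 for Gfra4-4 and 0.029 for Nrtn. Over the 10 alternatives that keep both arrays and the labelled dyes, the ratios of Ret ran from -0.68 to -0.39 and from 1.86 to 2.49, and those of Gdnf from -1.08 to -0.74 and from 0.75 to 1.09. The sign of each member probe on each array was the same under these, except with median centring for the male ratios of Gfra4-4 and Nrtn. Taking the brightest probe of a gene leaves 1 of the 4 Gfra4 probes. No paired analysis was possible because each array already holds both genotypes as a ratio, and there is a single group of ratios.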
